A study of Caenorhabditis elegans with 2 samples.

Results

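The 299 peaks described here are the places on chromosome X of Caenorhabditis elegans where CEH-20 was found at promoters or inside genes. They are the peaks of the conservative list on chromosome X with a summit at most 500 bp from the start of a protein-coding transcript or inside a protein-coding gene, and more than 200 bp from any tRNA gene. They made up 299 of all 2522 peaks (11.9%) and 299 of the 630 on X (47.5%). The other peaks on X were 229 distal intergenic ones and 102 near tRNA genes. Beyond the authors' threshold for the conservative list, which rests on how well peaks keep their rank, no measured strength entered this choice. Chromatin came from whole larvae in the L4 stage at 49 hours, of strain RW12211, synchronised as starved L1 after bleaching. In this strain the ceh-20 gene on chromosome III carries a TY1, EGFP and 3xFLAG tag inserted by CRISPR (allele st12211), and the chromatin was sonicated and pulled down with an antibody against GFP (ChIP-seq). Both samples, biological replicates 1 and 2, belonged to 1 group of this same genotype and stage, so no comparison of conditions exists, and a whole larva gives no cell type to a peak. Read depth is unknown, and the number of peaks limits the precision of each share.

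CEH-20 is a homeodomain protein of the PBX family, a class of TALE homeodomain proteins that bind DNA beside Hox proteins and beside Meis-type partners such as UNC-62 and PSA-3. In the worm it acts with Hox proteins in cell migration, in postembryonic mesoderm and in asymmetric divisions of epidermal cells. Chromosome X differs from the autosomes in dosage: the dosage compensation complex, loaded by SDC-2 in hermaphrodites, lowers transcription from both X chromosomes after it has been recruited at particular sites, many of which share a motif with the core letters GCGCAGGG. Many worm transcripts are trans-spliced, so an annotated transcript start can lie downstream of the true start of transcription.

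A core of 8 letters, GCGCAGGG, which is the core of the motif described at those recruitment sites, stood within 50 bp of the summit of 4 of the 299 peaks. It stood in 2 copies in the strongest of the 299, in intron 7 of mom-1. All 4 windows are shown because no autosomal promoter or genic peak had this core. Each window below is the summit with 50 bp on either side, on the plus strand of WBcel235 (the same assembly as ce11), read from the RefSeq genome, and its capitals mark the core or its reverse complement.

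mom-1 chrX:6296524-6296624: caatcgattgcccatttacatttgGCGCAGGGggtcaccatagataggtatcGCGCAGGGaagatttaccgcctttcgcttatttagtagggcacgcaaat
Y41G9A.17 chrX:2997071-2997171: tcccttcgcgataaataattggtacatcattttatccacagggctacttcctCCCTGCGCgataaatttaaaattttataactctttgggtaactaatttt
pks-1 chrX:5429516-5429616: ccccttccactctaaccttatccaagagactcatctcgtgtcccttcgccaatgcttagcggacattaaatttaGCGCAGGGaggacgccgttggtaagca
svh-5 chrX:15373929-15374029: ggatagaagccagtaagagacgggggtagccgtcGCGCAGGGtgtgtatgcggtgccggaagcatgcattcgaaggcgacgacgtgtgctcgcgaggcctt

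The next 6 windows hold the composite site of PBX and Hox proteins, searched as TGATNNAT. They are the members with this site that were found in both replicates' lists, apart from the window at cdd-1, which overlapped an annotated UTR. Capitals mark the composite or its reverse complement. The window at ttr-37 holds 2 overlapping copies, and the window at C29F7.3 also holds the Meis core TGACAG.

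C29F7.3 chrX:13420145-13420245: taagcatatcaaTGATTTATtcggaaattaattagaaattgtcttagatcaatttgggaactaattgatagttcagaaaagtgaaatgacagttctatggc
abhd-3.2 chrX:978396-978496: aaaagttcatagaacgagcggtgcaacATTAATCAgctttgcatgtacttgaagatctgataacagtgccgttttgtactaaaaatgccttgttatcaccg
tsct-1 chrX:12436693-12436793: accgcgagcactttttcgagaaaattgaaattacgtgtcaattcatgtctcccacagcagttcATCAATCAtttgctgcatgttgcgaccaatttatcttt
ttr-37 chrX:1337232-1337332: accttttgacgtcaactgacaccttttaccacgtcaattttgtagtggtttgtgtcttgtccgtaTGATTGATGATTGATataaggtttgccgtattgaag
sir-2.2 chrX:13329069-13329169: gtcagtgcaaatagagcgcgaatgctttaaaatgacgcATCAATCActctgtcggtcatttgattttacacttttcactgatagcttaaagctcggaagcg
T22E5.1 chrX:6413539-6413639: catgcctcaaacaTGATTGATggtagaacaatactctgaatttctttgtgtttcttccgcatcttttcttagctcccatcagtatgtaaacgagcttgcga

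The windows of the strongest promoter peaks, which overlap no annotated UTR, held none of the 9 motifs searched. They are printed without capitals.

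serp-1.1 chrX:15841223-15841323: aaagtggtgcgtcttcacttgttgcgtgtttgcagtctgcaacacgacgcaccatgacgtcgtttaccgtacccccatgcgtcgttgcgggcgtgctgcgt
epn-1 chrX:14818955-14819055: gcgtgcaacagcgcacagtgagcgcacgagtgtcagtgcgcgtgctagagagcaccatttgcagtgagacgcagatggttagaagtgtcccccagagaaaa
puf-9 chrX:5841247-5841347: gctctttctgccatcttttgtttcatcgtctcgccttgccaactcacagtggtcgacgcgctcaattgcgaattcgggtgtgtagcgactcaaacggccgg

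The strongest peaks lay at genes of varied roles, and 13 of the top 20 were at promoters, 6 were intronic and 1 was exonic. Strength here is the authors' signal value for each peak, which has no stated scale and ranks peaks within 1 list only. All 20 were in the thresholded lists of both replicates. The mom-1 peak, at chrX:6296424-6296761, had a signal of 425, with 197 in the ranked list of replicate 1 and 206 in that of replicate 2. The gene codes for a Porcupine-type enzyme needed for Wnt secretion, and the summit lay 3462 bp from its own nearest start. Both replicates gave this peak the highest value among the 299.

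Promoter peaks followed. The peak at chrX:15841162-15841374, 299 bp upstream of serp-1.1, had a signal of 353, with 166 in replicate 1 and 179 in replicate 2. The peak 491 bp upstream of epn-1, at chrX:14818838-14819169, had a signal of 328, with 157 and 163 in the replicates. The gene codes for epsin, an adaptor of endocytosis, and 2 annotated noncoding RNA genes, T04C10.8 and T04C10.9, lay within 200 bp of this summit. The peak at chrX:5841212-5841420, 295 bp upstream of puf-9, had a signal of 306, with 142 and 152 in the replicates. The product of puf-9 is an RNA-binding protein of the Pumilio family. The replicates differed little at these 3 peaks.

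At chrX:2996989-2997262, in intron 6 of Y41G9A.17, the signal was 297, with 162 in replicate 1 and 130 in replicate 2. The peak 494 bp upstream of ftt-2, which codes for a 14-3-3 protein, had a signal of 279, with 148 and 115. The exonic peak in pks-1, a polyketide synthase gene, at chrX:5429487-5429660, had a signal of 246, with 140 and 94.9. Replicate 1 had the higher value at these 3 peaks. At hsp-3, which codes for an Hsp70 chaperone of the endoplasmic reticulum, the summit lay 52 bp upstream of the start and the signal was 243, with 108 and 131 in the replicates. The peak 66 bp upstream of mdl-1, which codes for a Mad-like bHLH protein, had 220, with 110 and 104.

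The rest of the top 20 ran from 163 to 213. C29F7.3 had 213, zfp-3, a zinc finger gene, 196, T13C5.6 194, epg-7, an autophagy gene, 193, and rpl-11.2, a gene for a protein of the large ribosomal subunit, 191. ZK470.2 and F09A5.3 had intronic peaks of 184 and 182. The promoter peak of psa-3, which codes for a Meis-type homeodomain protein known to act with CEH-20 in an asymmetric division, had a signal of 179, with 73.8 in replicate 1 and 93.3 in replicate 2, 235 bp upstream of the start. An intron of sma-9, which codes for a Schnurri-type zinc finger protein of the BMP pathway, held a peak of 173, with 96.2 and 72.0. The last 2, at unk-1 and sym-4, had 165 and 163.

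Over all 299 peaks the median signal was 78.2, with quartiles of 64.3 and 102 and a lowest value of 2.24. The median was 80.4 for the 186 promoter peaks, 76.5 for the 85 intronic ones and 64.8 for the 28 exonic ones. The 17 peaks with a signal under 20 all overlapped a stronger peak of the list. A further measure of weak support is the authors' q-value, which was above 0.05 beside 33 of the 299 peaks. Nearly all peaks had the same width, 316 bp in 284 of 299.

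Fewer of the X peaks than of the autosomal promoter and genic peaks were strong. Signals above the list's median of 83.2 were found for 127 of 299 on X (42.5%, exact 95% interval 36.8 to 48.3) and for 585 of 1145 on the autosomes (51.1%, 48.2 to 54.0), a difference of -8.62 percentage points (Fisher's exact test, two-sided, p = 0.00931). The interval covers counting error over peaks only. This difference was -3.55 points in the larger thresholded list (exact p = 0.292) and -1.41 points in the list of replicate 1 alone (exact p = 0.841), and -8.74 points in that of replicate 2 (exact p = 0.0518). Against the distal intergenic peaks of X, of which 99 of 229 (43.2%) were above the median, the difference was -0.757 points (exact p = 0.929).

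**Figure D1:**
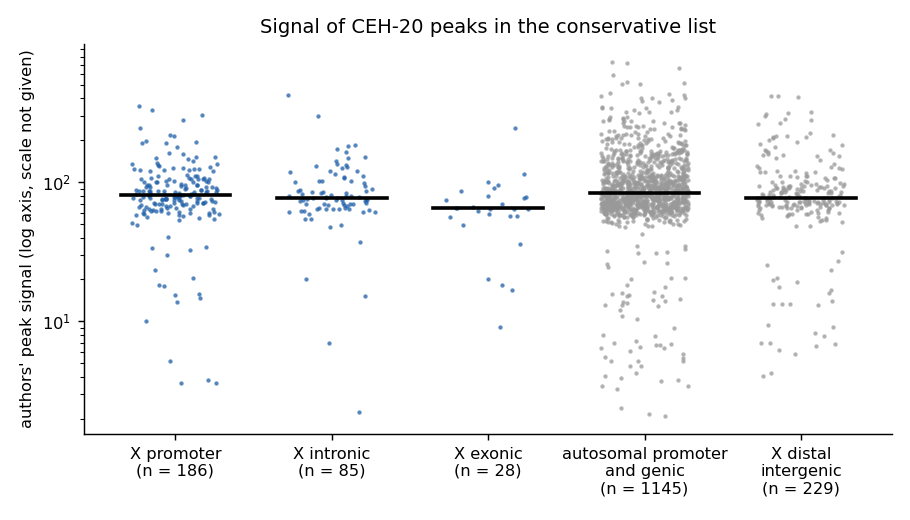
Each point is 1 peak of the conservative list, placed by the authors' signal (vertical log axis, scale not given), and black bars are medians. The 3 blue columns are the promoter (n = 186), intronic (n = 85) and exonic (n = 28) peaks of X, with medians of 80.4, 76.5 and 64.8, beside 84.3 for autosomal promoter and genic peaks and 77.2 for distal X peaks.

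Of the 299 peaks, 81 were in both replicates' thresholded lists (27.1%, 22.1 to 32.5), 34 in the list of replicate 1 alone, 59 in the list of replicate 2 alone and 125 in no replicate's list (41.8%). A conservative peak counted as found where it overlapped a replicate's peak by 1 bp or more. Exonic peaks were in both lists in 2 of 28 cases, promoter peaks in 54 of 186 and intronic peaks in 25 of 85. In the replicates' longer ranked lists, 297 of the 299 had a peak in replicate 1, with a median signal of 41.6 (26.9 to 197), and 295 in replicate 2, with a median of 39.4 (24.8 to 206). All 2522 conservative peaks were also in the ranked list for both replicates together, so this presence is not separate support.

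The share in both lists was lower than the 415 of 1145 (36.2%) of autosomal promoter and genic peaks, a difference of -9.15 percentage points (Fisher's exact test, two-sided, p = 0.00323). Signal moved with this share: 75 of the 127 peaks above the list's median were in both lists (59.1%), against 6 of the 172 at or below it (3.49%). Within the stronger part of the list the difference from the autosomes was -8.12 points (p = 0.0986), and with an overlap of 50% of each peak it was -5.25 points (p = 0.0821, both exact). Distal X peaks were in both lists in 67 of 229 cases (29.3%), a difference of -2.17 points (exact p = 0.625).

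**Figure D2:**
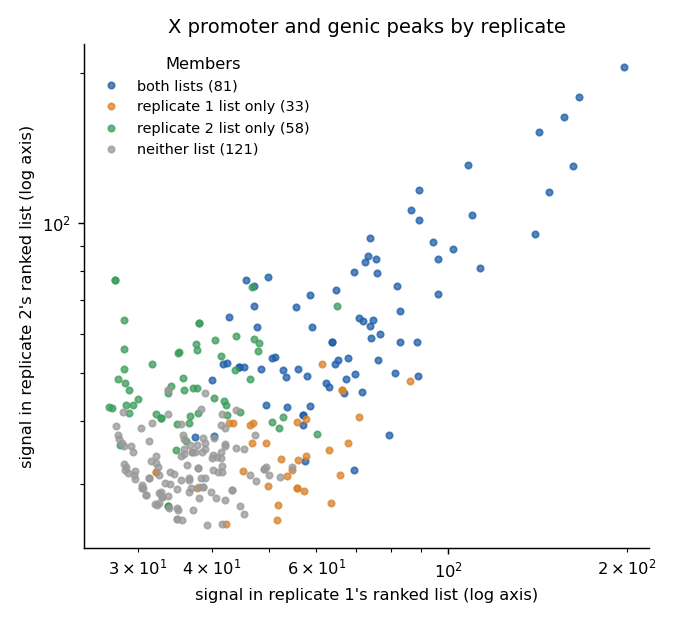
Each point is 1 of the 293 X promoter and genic peaks, of 299, with a ranked peak in both replicates, placed by the authors' signal in the ranked list of replicate 1 (horizontal log axis) and of replicate 2 (vertical log axis). Colours give the thresholded lists that held it, with 81 of the points in both, 33 only in replicate 1, 58 only in replicate 2 and 121 in neither. The strongest peaks sit at the upper right in both lists.

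Promoters held 62.2% of the X peaks and 65.1% of the autosomal ones (Fisher's exact test, two-sided, p = 0.378). The summit lay upstream of the nearest start for 158 of the 186 promoter peaks (84.9%), at a median distance of 212.5 bp. In 57 of the 186 the summit was also inside a protein-coding gene. Among the 85 intronic peaks 33 were in a first intron, numbered in the transcript with the most introns. The introns that held the 85 peaks had a median length of 3063 bp (52 to 100912). Neither value was counted over all X introns, so neither shows a preference for first or long introns. The peaks were spread along the chromosome much as the genes are: a left, a middle and a right segment of equal length held 32.1%, 36.1% and 31.8% of the peaks and 31.9%, 35.8% and 32.3% of the protein-coding genes. This likeness is partly set by the rule, which takes only summits near or inside protein-coding genes.

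Just inside the 500 bp limit lay the peaks of ftt-2 at 494 bp, epn-1 at 491 bp and gob-1 at 482 bp, the last with a signal of 15.8. Just outside it lay an intronic peak of kin-20 at 501 bp with 64.5 and an exonic peak of col-19 at 504 bp with 9.15, which were kept as genic. A peak of 164 at 503 bp from F46H5.2 was intergenic and fell outside the set.

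**Figure D3:**
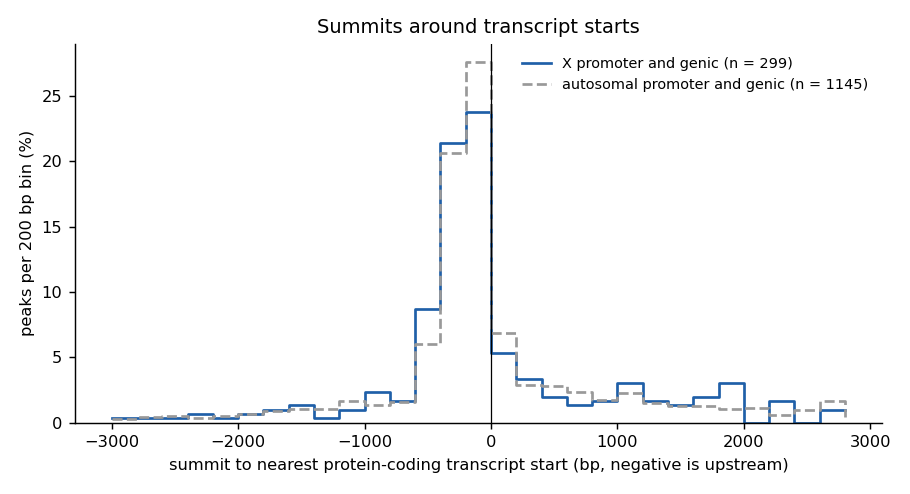
The distance from each summit to the nearest protein-coding transcript start is on the horizontal axis in bp (negative is upstream), and the vertical axis gives the percent of peaks per 200 bp bin, for 299 X and 1145 autosomal promoter and genic peaks. Both lines peak just upstream of the start. Peaks farther than 3000 bp are not drawn.

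X promoter peaks lay less often than autosomal ones between 2 genes that point away from each other, as also held over all genes. Such divergent starts flanked 10 of 186 promoter peaks on X (5.38%, 2.61 to 9.66) and 146 of 745 on the autosomes (19.6%, 16.8 to 22.6), a comparison chosen after the shares were seen (Fisher's exact test, two-sided, p = 5.2e-07). The genes themselves differed in the same direction, since 169 of 2731 protein-coding genes on X (6.19%) and 3580 of 17242 on the autosomes (20.8%) had a divergent partner within 1000 bp. Shares over peaks and over genes differ in unit, since both genes of a divergent pair are counted but share the stretch between them. The share of all promoters that lie between divergent starts was not counted, so whether the peaks differ from it is unknown. The part of this gene arrangement in the difference was not tested. The 10 peaks ranged in signal from 62.6 to 120. The strongest, named after its value was seen, lay 189 bp upstream of trap-2 and was shared with ile-2.

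Annotated noncoding RNA genes lay within 200 bp of some summits, 57 of 299 for the class called ncRNA, 3 for snoRNA, 2 for lincRNA and 1 for miRNA. None was that close to an snRNA, an rRNA gene or a pseudogene. The same shares were not counted for other peaks or for X genes, so whether 57 of 299 is high is unknown. The miRNA was mir-56, beside an intronic peak of F09A5.3 with a signal of 109. For 1 peak, in gpd-2, the central 51 bp occurred in 2 places of the genome, so its signal of 55.4 is uncertain.

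Sequence at the summits was richer in G and C than its surroundings, with a median of 46.5% in the central window and 34.7% in flanks starting 250 bp away. Autosomal promoter and genic peaks had 46.5% and 35.6%. Motifs were searched on both strands in the central window and in flanks with as many positions. The letters were TGATNNAT for PBX with Hox, TGATTGAC for PBX with Meis-type proteins, TGACAG for Meis-type proteins, TAGTNNTA as a reordered control, CACGTG for bHLH proteins, GAGAGA for a GA repeat, AGATAA for GATA factors, TCAAAG for TCF proteins and GCGCAGGG for the X recruitment motif. The PBX-Meis site followed by AG holds the Meis core, while no window of 8 letters can be both the PBX-Hox and the PBX-Meis site.

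The GA repeat was the 1 motif of 9 that passed the test of summits against flanks. It stood in 55 of 299 central windows (18.4%, 14.2 to 23.3) and in 25 of 299 flanks (8.36%), and 48 peaks had it only at the summit against 18 only in the flanks (adjusted p = 0.00258 over 9 motifs by Benjamini-Hochberg, exact McNemar test, two-sided). Windows of the same length held it in 4.91% of cases along all of X. In windows just upstream of X transcript starts, which leave out the start itself, the share was 9.91%. The share did not pass the test against autosomal summits, of which 21.9% held it (Fisher's exact test, adjusted p = 0.319). The flanks of the autosomal peaks held it in 6.55% of cases. Distal X summits held it in 20.1% and their flanks in 8.30%. For the 299 peaks, a window of 25 bp on either side of the summit gave an adjusted p of 0.173 against flanks by the exact McNemar test. The repeat stood in 34 of the 127 peaks above the median signal and in 21 of the 172 at or below it. Of the 20 strongest peaks 6 held it, at mdl-1, zfp-3, T13C5.6, epg-7, rpl-11.2 and sma-9.

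The PBX-Hox composite stood in 44 of 299 central windows (14.7%, 10.9 to 19.2) and in 24 flanks (8.03%, 5.21 to 11.7), 1.83 times as often. This missed the threshold (adjusted p = 0.0537 by the exact McNemar test), and it passed under 6 of 12 alternatives, with adjusted p-values over all 12 from 0.00309 (flanks 500 bp away) to 0.437 (replicate 2's list alone). In the larger list the adjusted p was 0.164 and in the stronger part of the list 0.416. The same letters in another order stood in 8 central windows and 15 flanks (exact adjusted p = 0.270). Of all windows of this length along X, 7.97% held the composite, and of those just upstream of X transcript starts, 9.04%.

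The composite was more frequent at X than at autosomal promoter and genic summits, where it stood in 105 of 1145 (9.17%, 7.56 to 11.0; adjusted p = 0.0330 by the two-sided Fisher's exact test). The flanks of the autosomal peaks held it in 8.12% of cases. In the stronger part of the list the adjusted p was 0.176, with promoters of 1000 bp it was 0.0594, and it was 0.0549 in replicate 1's own list and 0.356 in replicate 2's. Distal X summits held it in 23 of 229 cases and their flanks in 22 of 229.

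Among the X peaks the composite stood in 19 of 186 promoter summits (10.2%), 16 of 85 intronic ones (18.8%) and 9 of 28 exonic ones (32.1%). Promoter against intronic and exonic peaks together, 19 of 186 against 25 of 113 (22.1%), gave an adjusted p of 0.0605 by Fisher's exact test, and the flanks held it in 6.45% and 10.6% of cases. The composite stood in 7 of the 81 peaks in both replicates' lists (8.64%, 3.55 to 17.0). It stood in 21 of the 125 in neither list (16.8%, 10.7 to 24.5), and these shares were not tested against each other. Beside the 6 printed above, composites stood at peaks of genes in the lists below: in an intron of sax-3 with a signal of 129, in an exon of kin-2 with 100, in an intron of lon-2 with 98.0, in an intron of sma-9 with 74.2, at the promoter of ajm-1 with 73.5, in an exon of ddr-1 with 64.4, in an intron of nhr-14 with 63.2 and in an exon of col-19 with 9.15.

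The PBX-Meis composite stood at none of the 299 summits, which allows a share of up to 1.23% by the exact 95% interval, and in 2 flanks. Autosomal summits held it in 9 of 1145 cases (0.786%) and distal X summits in 5 of 229 (2.18%). The shorter Meis core stood in 19 central windows (6.35%) and 7 flanks (2.34%, adjusted p = 0.0680 by the exact McNemar test). By the same exact test, the E-box had counts of 14 and 5 (adjusted p = 0.143), the GATA motif of 20 and 18 (adjusted p = 0.868) and the TCF core of 17 and 26 (adjusted p = 0.270).

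**Figure D4:**
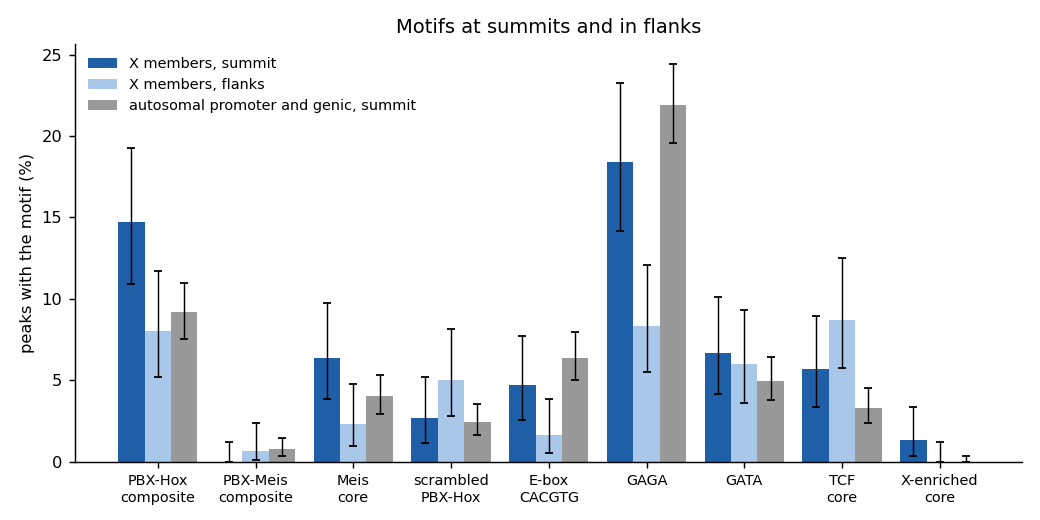
Bars give the percent of peaks with each of the 9 motifs in windows of equal length (vertical axis), at the summits of the 299 X peaks (dark blue), in their flanks (light blue) and at 1145 autosomal promoter and genic summits (grey), and lines are exact 95% intervals over peaks. The GA repeat and the PBX-Hox composite are the most frequent at X summits, with 18.4% and 14.7%.

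The recruitment core GCGCAGGG stood at 4 of 299 X summits (1.34%, 0.366 to 3.39) and at none of the 1145 autosomal promoter and genic summits, which allows up to 0.322% (adjusted p = 0.0163 by the same Fisher's exact test). The motif list was chosen with earlier results of these data known, so this p-value is not independent evidence. None of the flanks held it, and the test against flanks gave an adjusted p of 0.225. Along X, 68 of 175435 adjoining windows of this length held it (0.0388%), and 1 of 4149 windows just upstream of X transcript starts. The letters themselves are denser on X, which had 81 copies against 233 on the 5 autosomes together, so the test compares peaks and not equal numbers of copies. Of the 81 copies on X, 27 lay within 200 bp of a conservative summit of any kind, distal ones included. The same count was not made for the autosomal copies.

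Of these 4 peaks 3 were strong: mom-1, Y41G9A.17 and pks-1 ranked 1, 5 and 7 of the 299. The last, in intron 1 of svh-5, had a signal of 79.5, with 38.6 in replicate 1 and 37.0 in replicate 2, and was in neither replicate's thresholded list. The core began 2 bases past the summit in Y41G9A.17, and the second copy in mom-1 also began 2 bases past it. None of the 4 was at a promoter. Distal X summits held the core in 10 of 229 cases (4.37%). With 3 peaks in the stronger part of the list the adjusted p against the autosomes was 0.0501 by Fisher's exact test. It was 0.291 in replicate 2's list and 0.0850 with a window of 100 bp on either side of the summit. A shorter core of 7 letters, CGCAGGG, stood at 8 of 299 X summits (2.68%) and 8 of 1145 autosomal ones (0.699%; unadjusted p = 0.00836 by Fisher's exact test, an alternative added after the data were seen). Whether the complex itself was at these sites was not measured.

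Genes of development were counted through lists. A gene was counted where a peak stood inside it or in the stretch that begins 2000 bp before a transcript start and ends 500 bp after it, among those with any summit of the ranked list there. On X, 285 of 2136 protein-coding genes met this, 13.3%, and no test was made of any list. Among signalling genes 3 of 4 Wnt genes were counted. Beside mom-1 these were vang-1, a planar polarity gene, with an exonic peak of 79.8, and bar-1, a beta-catenin gene, with 64.2 at 402 bp upstream. Both of the latter were in neither replicate's list. Of 6 genes of the TGF-beta pathway 3 were counted, which were sma-9, lon-2, a glypican gene with 98.0, and tsp-21, a tetraspanin gene with 57.4. Of 6 genes of the FGF, EGF and Notch pathways 2 were counted, both through peaks inside the gene: lin-2, which codes for a CASK-type scaffold protein, with 143, and osm-11, a gene for a Notch co-ligand, with 114.

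Among 7 heterochronic genes, which time larval stages, 3 were counted. The strongest peak of lin-14, a transcription factor gene of early larval fates, had a signal of 114, with 63.8 in replicate 1 and 57.9 in replicate 2. At daf-12, a nuclear receptor gene, an intronic peak had 121, with 65.2 and 53.1, and at kin-20, a casein kinase gene of the Doubletime type, the strongest had 84.6, with 44.4 and 51.5. Replicates were close at all 3, and each peak was in both lists. Of 23 nuclear receptor genes 7 were counted (30.4%), led by nhr-3 with 149, nhr-1 with 124, daf-12 and nhr-35 with 105. Counting only peaks around starts left 3 of 23 (13.0%) beside 11.7% for all X genes, so most of these peaks lay inside the genes. Of 20 homeobox genes 2 were counted, psa-3 and ceh-60. The latter is a PBX gene itself, with an exonic peak of 73.9. With the same rule of starts alone, the counts were 1 of 4 for Wnt, 2 of 6 for TGF-beta, 0 of 6 for FGF, EGF and Notch, 1 of 7 for heterochronic and 1 of 16 for homeobox genes.

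Of 21 guidance and adhesion genes 5 were counted. The peak of sax-3, the Robo receptor gene, had a signal of 129, with 64.9 in replicate 1 and 68.1 in replicate 2, and it was only in replicate 2's list. At unc-115, which codes for an actin-binding protein of growth cones, a peak of 112 lay 99 bp upstream of the start, and lon-2 and ddr-1, a discoidin receptor gene with 64.4, followed. Around starts alone, 2 of 19 guidance genes and 3 of 38 of the next list were counted. Of 41 genes of synapse and excitability 5 were counted (12.2%), with kin-2, a regulatory subunit of protein kinase A, at 100, syd-2, the liprin gene, at 86.4, unc-2, a calcium channel gene, at 84.4, and dyn-1, the dynamin gene, at 83.2. None of 21 neuropeptide genes was counted. The acetylcholine receptor list had 1 of 5, acr-2 with 62.2, and the twk potassium channels had 1 of 10, twk-26 with 92.5.

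The muscle list had 2 of 18, dim-1 with 91.4 and act-4, an actin gene, with 74.6. Of 15 genes of epidermis and matrix 2 were counted, dpy-23, which codes for a subunit of the AP2 clathrin adaptor, with 160 at 319 bp upstream, and ajm-1, a gene of apical junctions, with 73.5. Of 25 cuticle collagen genes 3 were counted, col-183 and col-184 through 1 shared peak of 70.0 and col-19 with 54.2. Actins and collagens have close paralogs. The central 51 bp of these peaks had no exact copy elsewhere in the genome. The rest of each peak was not checked, so the mapping of reads there is uncertain. Among 8 genes of dosage and sex 1 was counted: sdc-2 had a peak of 96.1 at 446 bp upstream, with 57.0 in replicate 1 and 39.4 in replicate 2, in both lists. The ribosomal protein genes on X had 1 of 2, rpl-11.2.

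The 299 peaks were assigned to 243 genes, of which 207 had 1 peak, 26 had 2 and 5 had 3, while the 5 genes with 4 or more are shown by position. ZK470.2 had 7 peaks along 12690 bp, from 55.8 to 184, of which the strongest, at chrX:4142164-4142479, and a peak of 60.8 were in both lists. In kin-20 the 5 peaks, all in intron 1, included 2 overlapping pairs, and their signals ran from 2.24 to 84.6. In lin-14 the 5 peaks were also intronic. An overlapping pair of 114 and 15.2 and one of 102 and 54.2 lay in intron 3, which is 11174 bp long, and a peak of 78.3 lay in intron 5. Overlapping peaks share reads and are not separate observations, which applied to 50 of the 299. H18N23.2 had 4 peaks, with 112 at 170 bp upstream, 110 and 83.0 in introns and 82.3 at an internal start. scd-1 had 4, with 151 and 100 in both lists, 78.9 only in replicate 2's and 65.2 in neither.

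**Figure D5:**
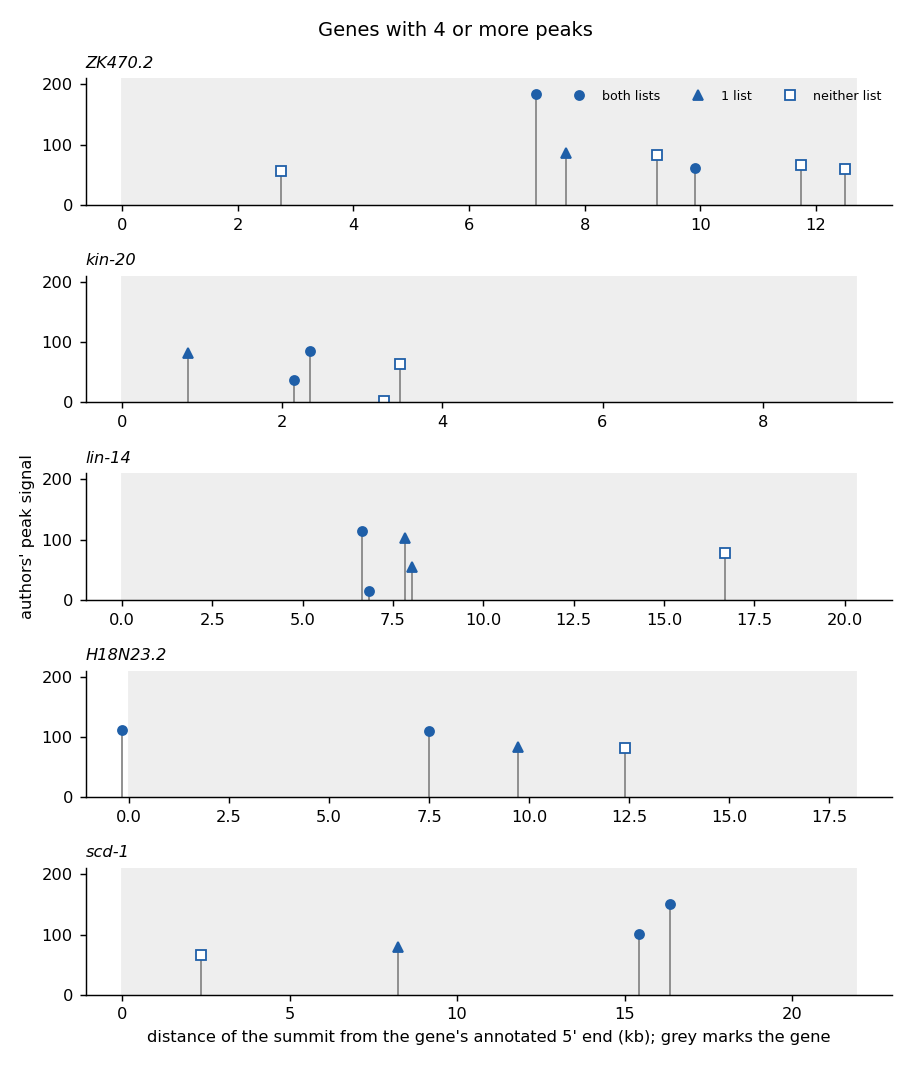
For the 5 genes with 4 or more peaks, the horizontal axis gives the distance of each summit from the annotated 5′ end in kb, the vertical axis the authors' signal, and grey marks the gene. Circles are peaks in both replicates' lists, triangles in 1 list and squares in neither. In kin-20 and lin-14 the peaks stand in close pairs.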

How the data were processed

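The authors deposited peak lists of sonicated anti-GFP ChIP-seq on assembly ce11, per the file descriptions: for each replicate and for both together, a list ranked by irreproducible discovery rate (IDR, how well peaks keep their rank) and a thresholded list. More than 1 ranked list was deposited for both replicates together, and the one that holds the whole conservative list was used here. Which aligner and peak caller were used is not given in the sources used here. Per peak, the deposited values are a signal (strength, with no stated scale), a −log10 q-value, a score scaled by IDR and a summit offset. They were used as deposited, the signal only to rank peaks within 1 list. Without read counts in the lists, the depth per sample is unknown. Control libraries were not analysed here.

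Genes came from Ensembl release 115 and sequence from the RefSeq genome, both WBcel235. Coordinates are 1-based. A summit at most 500 bp from the start of a protein-coding transcript was called promoter, otherwise exonic or intronic. Shares were compared with Fisher's exact test and summits with flanks by the exact McNemar test (both two-sided, threshold 0.05), adjusted by Benjamini-Hochberg over 9 motifs. Intervals are exact (Clopper-Pearson, 95%) and cover counting error over peaks, which are not independent samples. Both replicates belong to 1 group, so p-values describe peaks of these lists.

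Named genes were those of the 20 strongest peaks, those with 4 or more peaks, up to 4 per gene list by signal, those at the 500 bp limit and those with a printed sequence. Other genes were named after their values were seen. The set and the gene and motif lists were chosen with earlier results of these data known. Alternatives changed the list, strength, distances, overlap, windows, flanks and gene rule. The tests were checked on simulated data. The tools were scipy 1.17.1 and pandas 2.3.3 for the tests and tables, with numpy 2.4.6 and matplotlib 3.10.9, under Python 3.11.15.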

Additional observations from a re-analysis of the deposited data

How the results depend on the processing

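No paired analysis was possible because the 2 replicates form 1 group. Of the share and motif results, 71 values under alternatives kept their direction and their side of the threshold, 15 no longer passed, 6 newly passed and 4 turned their sign. The share above the median signal, X minus autosomal, was -3.55 points in the larger list, -8.60 for exonic and intronic peaks only (added after seeing the data) and from -8.74 to -1.41 with 1 replicate left out. The share in both lists, X minus autosomal, was -8.12 points in the stronger part of the list, -5.25 with an overlap of 50% of each peak and -4.61 for exonic and intronic peaks only (p = 0.404), against -11.4 for promoter peaks only (p = 0.00414, both by Fisher's exact test and added after seeing the data). Against distal X peaks, the share above the median was 4.63 points in the larger list and 0.902 with promoters of 1000 bp, and the share in both lists was 0.423 points with promoters of 1000 bp and 0.602 with an overlap of 50% of each peak. The cause of these shifts was not tested.

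Against flanks, 1 motif passed as reported, 2 with promoters of 250 bp, 2 with 1000 bp and 2 with flanks 500 bp away. A window of 25 bp on either side of the summit gave 1, the PBX-Hox composite in place of the GA repeat. With 100 bp on either side 5 passed. Without peaks that overlap a stronger one (added after seeing the data) 3 passed, and from 1 to 2 with 1 replicate left out. Against the autosomes, 2 passed as reported, 1 with promoters of 1000 bp and 0 in the stronger part of the list. With 25 bp on either side of the summit 3 passed (the TCF core besides the other 2), and with 100 bp on either side 1 did. From 0 to 1 passed with 1 replicate left out. For promoter against genic summits 0 passed as reported, where the composite had an unadjusted p of 0.00672 by Fisher's exact test. With 100 bp on either side of the summit 1 passed. Of all X genes 11.7% were counted with the window around starts alone and 11.4% with assigned genes alone. By the window, the FGF, EGF and Notch list had 0%, the nuclear receptors 13.0%, Wnt 25% (from 75%), heterochronic 14.3% (from 42.9%), guidance 10.5% (from 23.8%), TGF-beta 33.3% (from 50%), homeobox 6.25% (from 10%) and synapse 7.89% (from 12.2%). Depth is unknown, so a peak missing from a replicate's list was not shown to be absent.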

Other observations

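The strongest peak of the ranked list used here for both replicates together lay on X but in no thresholded list. It was at chrX:15810939-15811167, between genes and 6937 bp upstream of Y7A5A.7, with a signal of 1643 there and of 873 and 876 in the ranked lists of replicates 1 and 2. A neighbour at chrX:15808034-15808349, with 205, was also in no thresholded list. Its replicates stood apart, with 58.8 and 164. Elsewhere on X, an intergenic peak of 224 at chrX:293286-293601, 3790 bp upstream of R57.2, was also in no thresholded list. There the replicates had 108 and 126.

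Among promoter and genic peaks of X outside the conservative list, the strongest ranked one lay in an intron of gnrr-3 with a signal of 94.3. It was in the larger list and in both replicates' own lists, with 48.6 and 44.3. It was followed by peaks at lron-3 with 87.5, at rab-14 with 87.2 and at F16B12.6 with 83.4, all in the larger list. At lron-3 replicate 1 had 63.4 and replicate 2 had 21.4, while at rab-14 they had 24.0 and 64.8.

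The core GCGCAGGG stood at 10 distal X summits, with signals from 85.6 to 419. The one 3996 bp downstream of the start of W02H3.3 had a signal of 419 and the one 733 bp upstream of nspc-17 had 410. The one 4880 bp upstream of xol-1, the gene that sets male or hermaphrodite fate from the X to autosome ratio, had 218 and held 2 copies. The weakest 3 of the 10 had 90.6, 86.7 and 85.6, beside a median of 77.2 over all distal X peaks, and the last 2 were in neither replicate's list. These genes were named after their values were seen.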
